A study of Mus musculus with 12 samples.

Results

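The expression of 10 genes that mark myoepithelial and smooth muscle cells was followed across 12 mammary tumors. The genes were chosen by symbol among the 47593 genes with a value, and every one of the 10 was found. They fall into 2 genes tied to myoepithelial identity or function (Trp63, which encodes the transcription factor p63, and Oxtr, the oxytocin receptor) and 8 genes of the contractile apparatus (Acta2, Tagln, Myl9, Actg2, Mylk, Myh11, Cnn1 and Lmod1).

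The tumors came from 9 female MADM-mutant mice, in which loss of Brca1 and p53 had been introduced into scattered mammary cells by MADM (mosaic analysis with double markers). The mice carried the MADM alleles, labelled RG;GR and called TG and GT in the study's methods, together with Brca1 and p53 mutant alleles on a mixed background, and were not treated. Cre was expressed from the MMTV promoter, which acts in mammary epithelium, and RNA came from pieces of whole tumor, so host stroma, vessels and blood cells were sampled as well. All tumors belong to 1 condition, no normal gland was among the samples used here, and 7 mice gave 1 tumor each, while 1 mouse gave tumors 3 and 4 and 1 mouse gave tumors 10, 11 and 12.

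Myoepithelial cells form the outer, basal layer of the mammary duct and alveolus. They are epithelial cells that keep p63 and basal keratins, yet they also hold the contractile proteins of smooth muscle, and they squeeze milk from the alveoli when oxytocin binds its receptor on their surface. The contractile genes are shared with vascular smooth muscle, with pericytes and with activated fibroblasts, whereas p63 is restricted to the basal layer of epithelia. The comparisons below therefore keep p63 and the oxytocin receptor apart from the contractile genes, and ask how the members of each set vary among tumors, between tumors of the same mouse and with one another.

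Values are TPM, the usual length-corrected measure of transcript abundance, in which the reads of a gene are divided by its length and each tumor is scaled to the same total, so that levels can be compared between genes. TPM keeps no record of read number, so depth is unknown here and values carry no counting interval. Unless stated otherwise, tumors of the same mouse were averaged, errors are SD over n = 9 mice, and differences and correlations were computed on log2(TPM + 1). A gene was tested when its mean was at least 1 TPM, which 16779 genes and all 10 members passed. In pieces of whole tumor, fewer cells of a type and less RNA per cell cannot be told apart.

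A pair of tumors stood apart from the rest. Tumor 2 held little RNA of epithelial genes, with Epcam listed at 0 and a sum of 1.38 TPM over 7 luminal epithelial genes against up to 7962 TPM in tumor 1, whereas its 5 B lymphocyte genes summed to 4662 TPM. Tumor 8 had 159 TPM over the luminal genes and, at 3911 TPM, the highest sum over 8 fibroblast genes. Some results for the members are therefore also given without the mice of tumors 2 and 8, a choice made after these values were seen. The correlations of the wider gene lists described below are given with all mice only. The luminal genes were low in both tumors, so their correlations may depend on these mice.

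The members lie on chromosomes 1, 2, 6, 9, 16 and 19 (GRCm38), and each is an annotated protein-coding gene. Trp63 (16:25683763-25892102, plus strand), Mylk (16:34745210-35002420, plus strand) and Myh11 (16:14194535-14291372, minus strand) share chromosome 16. Oxtr (6:112473683-112489943, minus strand) and Actg2 (6:83512905-83536265, minus strand) share chromosome 6, and Cnn1 (9:22099216-22109630, plus strand) and Tagln (9:45929619-45936058, minus strand) share chromosome 9. Acta2 lies at 19:34241090-34255590 on the minus strand, Myl9 at 2:156775420-156781658 on the plus strand and Lmod1 at 1:135324807-135368065 on the plus strand.

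Smooth muscle genes are classically bound by serum response factor at a sequence called the CArG box. RefSeq promoters of GRCm38.p6 were held for 6 of the 10 members (Oxtr, Acta2, Cnn1, Myl9, Mylk and Lmod1), and the 250 bases before each start were searched for an exact CArG box, which reads alike on both strands. Of these 6, Myl9 held one, from 161 to 152 bases before its RefSeq start, and 378 of 27025 promoters of the same length (1.40%) held one. All 6 windows reach into the longer GENCODE gene. The Mylk window lies wholly inside it, as do 217 of the Acta2 bases, 118 of the Oxtr, 44 of the Myl9, 37 of the Cnn1 and 6 of the Lmod1 bases. The search allowed no mismatch, and the absence of an exact match says only that these letters are not in that window. The Myl9 promoter is shown because it is the only one of the 6 with the exact box, up to the base before the annotated GENCODE gene (chr2:156775214-156775419, plus strand, RefSeq GRCm38.p6), with the CArG box in capitals.
Myl9 promoter: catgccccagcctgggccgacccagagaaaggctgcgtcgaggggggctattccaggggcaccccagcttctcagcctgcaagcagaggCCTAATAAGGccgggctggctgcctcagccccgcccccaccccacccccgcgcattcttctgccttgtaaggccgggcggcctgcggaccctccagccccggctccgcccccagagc

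The most abundant members were Acta2, the smooth muscle form of actin, and Tagln, the actin-binding protein transgelin or SM22. Acta2 reached 70.8 ± 43.8 TPM (SD, n = 9 mice), with 22.2 TPM in tumor 9 as the lowest tumor, a median of 75.4 and 194 TPM in tumor 4 as the highest. Tagln reached 59.9 ± 42.6 TPM (SD, n = 9 mice), from 16.8 TPM in tumor 9 through a median of 57.3 to 195 TPM in tumor 4. Both genes thus had their lowest level in the same tumor and their highest level in the same tumor, and together they made up between 67.9% and 80.6% of the summed TPM of the 8 contractile genes in 10 of the 12 tumors. In tumor 6 they made up 39.6%, and in tumor 9 12.5%. Without the mice of tumors 2 and 8, the means were 78.2 ± 47.6 TPM for Acta2 and 66.2 ± 47.0 TPM for Tagln (SD, n = 7 mice).

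Myl9, the regulatory light chain of smooth muscle myosin, stood at 33.1 ± 34.0 TPM (SD, n = 9 mice). Its lowest value was 8.01 TPM in tumor 9, its median 23.8 and its highest 115 TPM in tumor 6, which lay 1.67-fold above the next tumor. Tumor 6 was the only tumor in which Myl9 exceeded Acta2, which was at 50.4 TPM there. The neighbouring genes Epb41l1, Aar2, Dlgap4 and Tgif2, chosen after the values were seen, had 26.9, 21.3, 45.7 and 14.6 TPM in tumor 6, each within the range of the other tumors. Actg2, the enteric smooth muscle actin, averaged 12.4 ± 8.82 TPM (SD, n = 9 mice), from 1.28 TPM in tumor 8 through a median of 13.0 to 25.1 TPM in tumor 1.

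Mylk, which encodes the kinase that phosphorylates the myosin light chain, was the most even member. Its values ran from 2.99 TPM in tumor 8 through a median of 3.69 to 6.96 TPM in tumor 4, with a mean of 3.99 ± 1.08 TPM (SD, n = 9 mice). On the log2 scale its SD over mice was 0.29, and only 8.12% of all genes tested had a smaller one. The same SD was 0.83 for Acta2, 0.94 for Tagln, 1.16 for Myl9, 1.25 for Actg2, 0.84 for Cnn1, 0.70 for Lmod1 and 2.36 for Myh11. The median SD was 0.89 over the 8 contractile genes and 0.57 over all genes tested, of which 10% exceeded about 1.44.

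Cnn1 and Lmod1 were low. Cnn1 encodes calponin, an actin-binding protein of differentiated smooth muscle, and had 2.38 ± 2.53 TPM (SD, n = 9 mice), from 0.483 TPM in tumor 7 through a median of 1.56 to 8.18 TPM in tumor 1. Lmod1 encodes leiomodin, which nucleates actin filaments in smooth muscle, and had 1.27 ± 1.22 TPM (SD, n = 9 mice), from 0.119 TPM in tumor 8 through a median of 1.06 to 3.98 TPM in tumor 7. The tumor with the highest Lmod1 was therefore the tumor with the lowest Cnn1.

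Myh11, the heavy chain of smooth muscle myosin and a marker of mature smooth muscle, was near 1 TPM in most tumors and very high in a single tumor. It was at 250 TPM in tumor 9, whereas the remaining 11 tumors lay between 0.416 (tumor 8) and 3.44 TPM (tumor 4), and the median of all 12 was 0.898 TPM. Tumor 9 was 72.7-fold above the next tumor. Because of it, the mean of 28.8 ± 83.1 TPM (SD, n = 9 mice) describes no tumor. Myh11 took 80.1% of the contractile sum in tumor 9 and at most 0.885% in any other tumor. Tumor 9 was at the same time the lowest of the 12 tumors for Acta2, Tagln and Myl9, and had 10.1 TPM of Actg2 and 1.04 TPM of Cnn1.

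The genes beside Myh11 on chromosome 16, also chosen after the values were seen, did not share its level in tumor 9. Marf1 had 39.8 TPM there and between 21.3 and 38.9 TPM elsewhere, and Nde1, the gene nearest to Myh11, had 61.1 TPM, just under the 61.7 TPM of the next lowest tumor. None of the neighbours listed overlaps Myh11. Over the 9 mice, the genes whose pattern was most like that of Myh11 were Lpo (lactoperoxidase, r = 0.997, rho = 0.80), Susd2 (r = 0.996, rho = 0.70), Ccdc190 (r = 0.995, rho = 0.56), Slc22a3 (r = 0.994, rho = 0.53) and Gm12407 (r = 0.993, rho = 0.73). In each of them r was well above rho, and Susd2 reached 152 TPM.

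**Figure D1:**
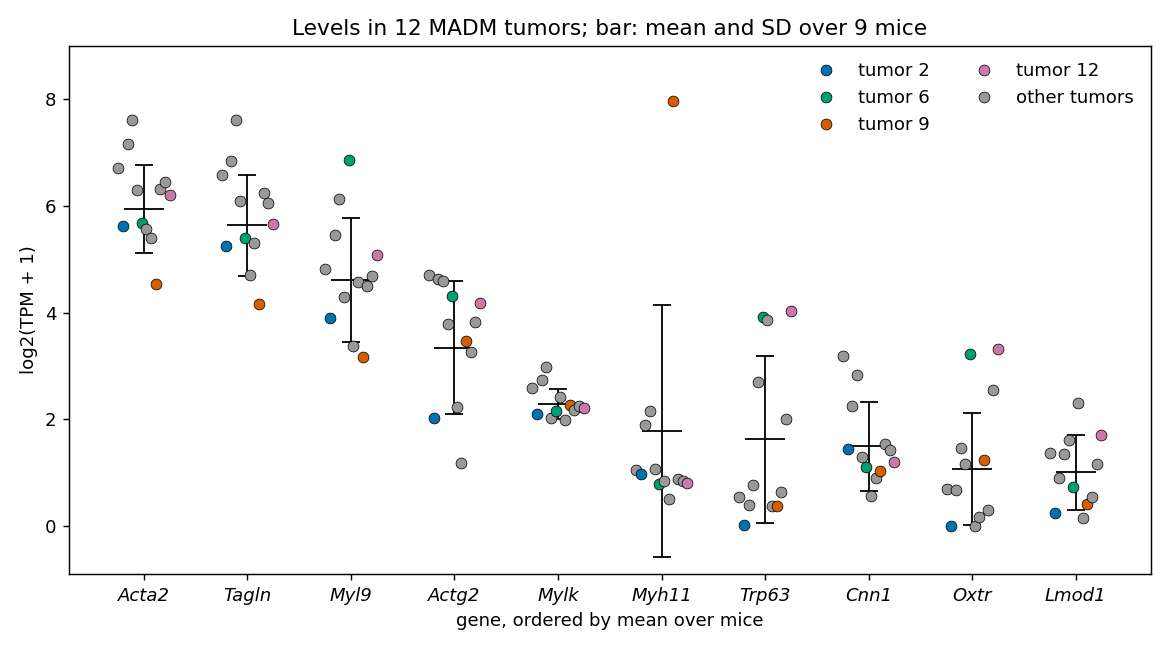
Levels of the 10 genes on the log2(TPM + 1) scale (vertical axis), with genes ordered by their mean over mice (horizontal axis). Each point is 1 of 12 tumors, with tumors 2, 6, 9 and 12 colored, and the cross and whiskers give the mean and SD over 9 mice. Mylk spans the narrowest range, Myh11 has 1 point at 7.97 far above its other tumors, and Acta2 and Tagln lie highest.

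p63 was present at more than trace levels in a minority of tumors. Trp63 was at 15.5 TPM in tumor 12, 14.2 in tumor 6, 13.6 in tumor 7, 5.48 in tumor 5 and 3.01 in tumor 11, and the other 7 tumors lay between 0.0221 (tumor 2) and 0.716 TPM (tumor 4). The median was 0.633 TPM and the mean 4.57 ± 5.78 TPM (SD, n = 9 mice), or 5.83 ± 6.02 TPM without the mice of tumors 2 and 8 (SD, n = 7 mice). Its SD of 1.57 on the log2 scale was larger than that of 92.2% of the genes tested.

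Oxtr varied among tumors as well, with an SD of 1.06 on the log2 scale, larger than that of 79.9% of the genes tested. It was highest in tumors 12 and 6, at 9.05 and 8.39 TPM, followed by 4.85 TPM in tumor 11, and it was listed at 0 in tumors 2 and 7. The median was 0.932 TPM and the mean 1.96 ± 2.81 TPM (SD, n = 9 mice), or 2.50 ± 3.00 TPM without the mice of tumors 2 and 8 (SD, n = 7 mice). Tumors 5, 6, 11 and 12 thus had both Trp63 and Oxtr over 1 TPM, with 1.25 TPM of Oxtr in tumor 5, whereas in tumor 7, with 13.6 TPM of Trp63, Oxtr was listed at 0. Transcripts of Oxt, the oxytocin gene, whose peptide reaches the gland through the blood, were listed at 0 in 11 tumors and at 0.325 TPM in tumor 4.

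The map of all values sets both groups of genes side by side. Tumors 1 and 4 had all 8 contractile genes above the gene's own median, tumors 3 and 11 had 7 of 8, and tumor 8 had none. Tumors 1, 3 and 4 nevertheless had Trp63 at 0.454, 0.312 and 0.716 TPM. Counts of 2 or 3 of 8 were found both in tumors with high Trp63 (2 in tumors 6 and 7 and 3 in tumor 12) and in tumors with low Trp63 (2 in tumors 2 and 9 and 3 in tumor 10). Of the tumors with Trp63 over 1 TPM, tumor 11 was the only one with 7 contractile genes above their medians. The ratio of Acta2 to Trp63 was 3.44 in tumor 7 and 3.55 in tumor 6 but 228 in tumor 1, 454 in tumor 3 and 2180 in tumor 2. The last 3 ratios divide by Trp63 values under 1 TPM, only 0.0221 TPM in tumor 2, so their size is uncertain.

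**Figure D2:**
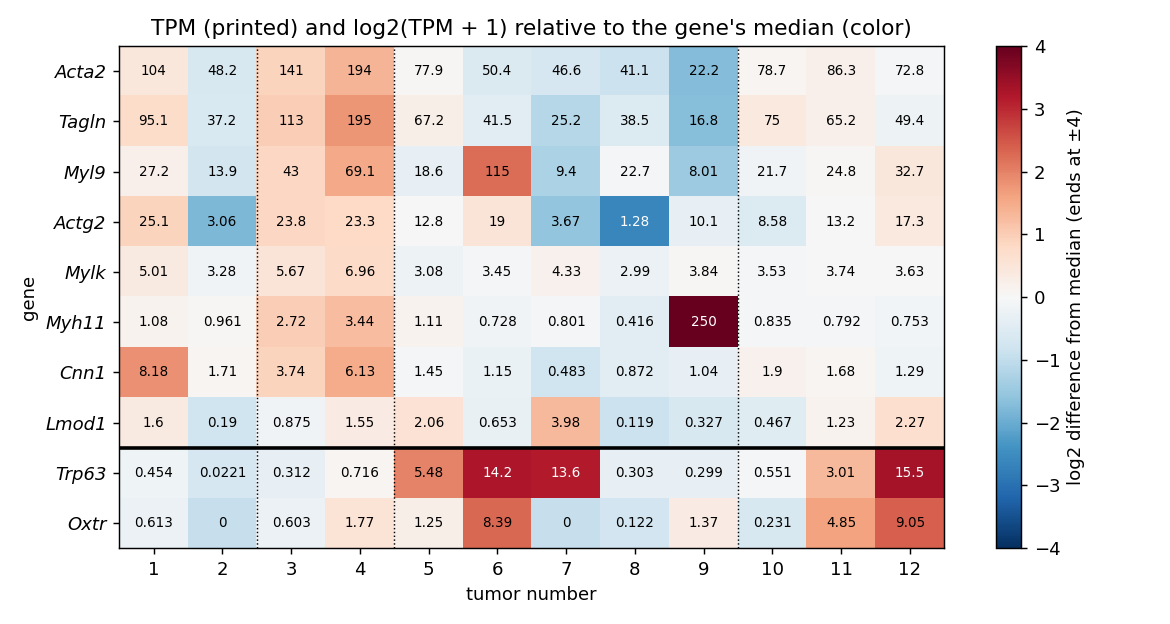
TPM of the 10 genes (rows, contractile genes above the black line) in the 12 tumors (columns), printed in each cell. Color gives the difference of log2(TPM + 1) from the gene's median over the tumors, and the dotted lines bound tumors 3 and 4 of one mouse and tumors 10 to 12 of another. Red in the contractile rows lies mostly in tumors 1, 3 and 4, and red in the Trp63 row lies in tumors 5, 6, 7, 11 and 12.

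By mean log2(TPM + 1) the order of levels was Acta2 (5.95), Tagln (5.64), Myl9 (4.62), Actg2 (3.34), Mylk (2.29), Myh11 (1.79), Trp63 (1.63), Cnn1 (1.50), Oxtr (1.07) and Lmod1 (1.01). Each of the 9 neighbouring pairs in this order was compared within mice by a two-sided exact sign-flip permutation test, with Benjamini-Hochberg adjustment over the 9 pairs. Acta2 exceeded Tagln in 9 of 9 mice, by 0.31 ± 0.23 on the log2 scale (SD, n = 9 mice, exact p = 0.0039, adjusted p = 0.035), and 0.0039 is the smallest p that 9 mice allow. It was the single pair past the threshold of 0.05. In tumor 4 alone, averaged here with tumor 3, Tagln was slightly above Acta2 (195 and 194 TPM). The Tagln level is itself uncertain, since 53.3% of its windows overlap antisense transcripts, as described below.

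The next 3 steps were larger but more variable. Tagln was above Myl9 by 1.02 ± 0.99 in 8 of 9 mice (SD, exact permutation p = 0.031, adjusted p = 0.070), Myl9 above Actg2 by 1.27 ± 1.17 in 8 of 9 mice (SD, exact permutation p = 0.012, adjusted p = 0.053), and Actg2 above Mylk by 1.05 ± 1.11 in 6 of 9 mice (SD, exact permutation p = 0.031, adjusted p = 0.070). The 5 lower steps, among Mylk, Myh11, Trp63, Cnn1, Oxtr and Lmod1, did not exceed their spread (exact permutation p between 0.38 and 0.91). Mylk was nevertheless above Myh11 in 8 of 9 mice, by 0.51 ± 2.34 on the log2 scale (SD, n = 9 mice), and without the mouse of tumor 9 the step was 1.28 and passed (exact permutation, adjusted p = 0.023). The count of 1 pair became 0 without the mice of tumors 2 and 8, where 7 mice allow no pair to pass alone after adjustment, and 4 when each tumor was taken as a unit.

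Tumors of the same mouse offered a view of how far each gene varies within an animal. For every gene, the mean absolute difference over the 4 pairs of tumors that share a mouse was compared with that over the 62 pairs from different mice, by a one-sided exact permutation test over the 7920 ways to assign tumors to mice. No gene passed after Benjamini-Hochberg adjustment over the 16779 genes (0.0% called, smallest adjusted p = 0.13), while 4419 genes (26.3%) had an unadjusted p under 0.05. Among the members, 0 of 10 passed after adjustment, and 6 of 10 had an unadjusted p under 0.05.

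All 6 were contractile genes. Tumors of one mouse differed by 0.23 in Acta2 on the log2(TPM + 1) scale against 1.01 between mice (exact p = 0.011, adjusted p = 0.14). Mylk differed by 0.10 within against 0.35 between mice (exact p = 0.022), Myl9 by 0.45 against 1.28 (exact p = 0.035), Actg2 by 0.47 against 1.36 (exact p = 0.041) and Tagln by 0.49 against 1.16 (exact p = 0.046). Myh11 differed by 0.10 against 1.67 (exact p = 0.017), a distance that tumor 9 sets in large part. Cnn1 (0.32 against 0.91, exact p = 0.075) and Lmod1 (0.69 against 0.79, exact p = 0.38) did not reach 0.05.

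In neither myoepithelial gene was the mean difference within mice smaller than that between mice. Trp63 differed by 1.80 within mice and 1.76 between them (exact p = 0.42), and Oxtr by 1.71 within and 1.35 between (exact p = 0.70). In the mouse with 3 tumors, Trp63 was at 0.551, 3.01 and 15.5 TPM in tumors 10, 11 and 12, a 28.1-fold range. Oxtr was at 0.231, 4.85 and 9.05 TPM in the same order, a 39.1-fold range. Over these 3 tumors Mylk varied by 1.06-fold, Myh11 by 1.11-fold, Acta2 by 1.19-fold (72.8 to 86.3 TPM), Cnn1 by 1.48-fold, Myl9 by 1.51-fold and Tagln by 1.52-fold. Actg2 varied more, by 2.01-fold (8.58 to 17.3 TPM), and Lmod1 by 4.86-fold, from 0.467 TPM in tumor 10 to 2.27 TPM in tumor 12. In the mouse of tumors 3 and 4, the fold in TPM was 2.30 for Trp63 and 2.93 for Oxtr, and 1.02 (Actg2) to 1.77 (Lmod1) for the contractile genes. On the log2(TPM + 1) scale the 2 sets were not separated there, since its tumors differed by 0.39 in Trp63 (0.312 and 0.716 TPM) and by 0.79 in Oxtr, and by 0.03 (Actg2) to 0.78 (Tagln) in the contractile genes, of which 5 of 8 differed by more than Trp63. For Trp63 the sign of within minus between was not stable, since it was reversed under 7 of 16 alternatives and was -0.66 without tumor 10 and -0.74 without tumor 12. For Oxtr it was reversed without tumor 10, at -0.65, and under none of the other 15 alternatives. Whether the 2 sets differ in this respect was not tested.

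**Figure D3:**
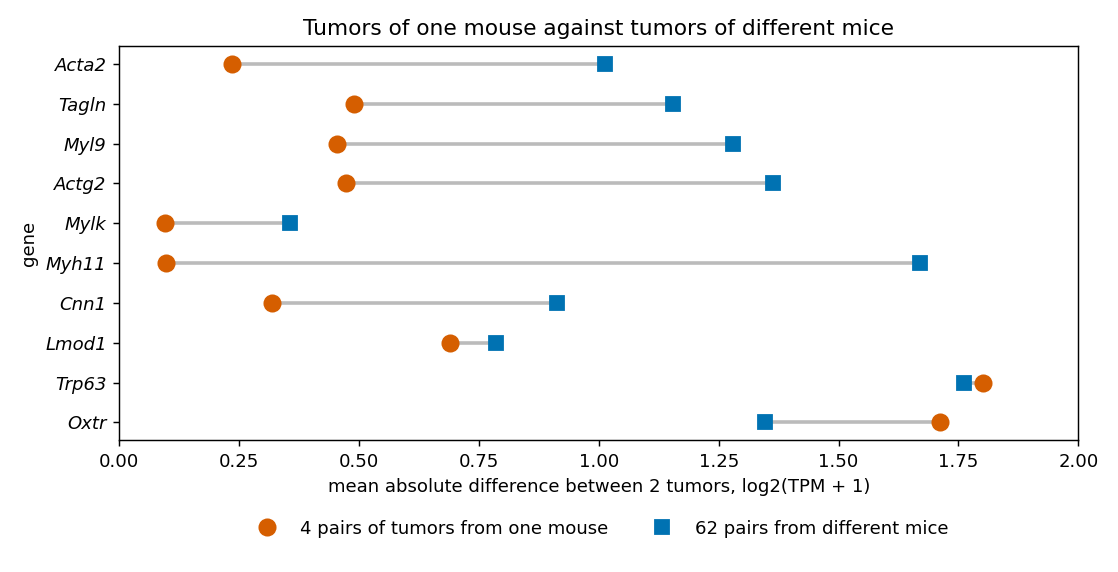
Mean absolute difference between 2 tumors in log2(TPM + 1) (horizontal axis) for each gene (vertical axis). Circles average the 4 pairs of tumors from one mouse and squares the 62 pairs from different mice. The circle lies left of the square in all 8 contractile genes, from 0.23 against 1.01 in Acta2 to 0.69 against 0.79 in Lmod1, and right of it in Trp63 and Oxtr.

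How the genes moved together was measured as Pearson's r and Spearman's rho over the 9 mice, with two-sided exact permutation over 362880 pairings of mice and Benjamini-Hochberg adjustment over the 16778 other genes. Acta2, Trp63 and Oxtr served in turn as the gene compared with all others. No gene passed after adjustment for any of them (smallest adjusted p 0.28, 0.21 and 0.67), while 1363, 912 and 555 genes had an unadjusted p under 0.05. The values of r are therefore given as a description, beside the share of all genes with an r of 0.7 or more, which was 4.45% for Acta2, 2.65% for Trp63 and 1.36% for Oxtr.

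Acta2 and Tagln varied in parallel. Their r was 0.97 and their rho 0.93 (n = 9 mice, exact permutation p = 4.96e-05, p for rho = 0.00075, adjusted p over all genes = 0.28), and Tagln ranked 1 of 16778 genes in likeness to Acta2. The r was 0.92 without the mice of tumors 3 and 4 and of tumor 9, the farthest from the median of Acta2, and 0.98 without the mice of tumors 2 and 8, where Tagln ranked 15. When each mouse was left out in turn, r lay between 0.96 and 0.99 and the rank between 1 and 4, and by rho Tagln ranked 10. The ratio of Acta2 to Tagln stayed between 0.996 in tumor 4 and 1.85 in tumor 7.

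Cnn1 was the other member with an r of 0.7 or more to Acta2, so 2 of 9 members reached that value against 4.45% of all genes. The count was 5 without the mouse of tumor 9 (Tagln, Myh11, Cnn1, Actg2 and Mylk) and 1 without that of tumors 3 and 4 (Tagln), and by rho it was 4. For Cnn1 r was 0.74 and rho 0.82 (n = 9 mice, exact permutation p = 0.021, adjusted p = 0.56), and r was 0.79 without the 2 farthest mice, 0.81 without tumor 9 and 0.65 without tumors 3 and 4. Actg2 had r = 0.58 and rho = 0.80, Mylk r = 0.61 and rho = 0.47, Myl9 r = 0.51 and rho = 0.72, and Lmod1 r = 0.40 and rho = 0.43 to Acta2. Without tumor 9 the r was 0.78 for both Actg2 and Mylk, and without tumors 3 and 4 it was 0.47 and 0.25. The r of Myl9 was moved both ways by single mice. It was 0.38 without the mouse of tumors 3 and 4, 0.32 without that of tumor 9 and 0.07 without both. Without the mouse of tumor 6, where Myl9 was highest, it was 0.88. Without the mouse of tumor 7 the r of Lmod1 to Acta2 was 0.72. Over the 28 pairs of contractile genes, 22 had a positive r, and the median was 0.39. Without the mouse of tumor 9 these were 27 pairs and a median of 0.60.

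The sign for Myh11 was set by a single tumor. Over 9 mice its r to Acta2 was -0.51 and its rho 0.18 (exact permutation p = 0.22, adjusted p = 0.70), whereas without tumor 9 its r was 0.87 over 8 mice. Without the mouse of tumors 3 and 4 as well, the other of the 2 mice farthest from the median of Acta2, r was 0.69 over 7 mice. In the 11 tumors outside tumor 9, the ratio of Acta2 to Myh11 lay between 50.2 and 109, and in tumor 9 it was 0.0886.

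Trp63 and Oxtr were then set against the contractile genes. To Acta2, r was -0.02 for Trp63 (rho = 0.28, exact permutation p = 0.96) and 0.08 for Oxtr (rho = 0.21, exact permutation p = 0.83). Of the 9 other members, 0 had an r of 0.7 or more to Trp63, against 2.65% of all genes, and 0 to Oxtr, against 1.36%, so neither count stands below its background. When single mice were left out, the count was 0 to 1 for Trp63 and 0 to 2 for Oxtr. Over the 16 pairs of 1 gene from each set, 8 had a positive r and 13 a positive rho, the median was 0.02 for r and 0.22 for rho, and the range of r ran from -0.45 for Trp63 with Cnn1 to 0.69 for Oxtr with Myl9. The last value rests on the mouse of tumor 6, since without it r was 0.30, while it was 0.64 without tumor 7 and 0.13 without both. Oxtr with Actg2 had r = 0.63 and rho = 0.48 (n = 9 mice, exact permutation p = 0.067, adjusted p = 0.99), with r = 0.61 without the mice of tumors 6 and 7 and 0.43 without those of tumors 2 and 8. Lmod1 was the contractile gene most like Trp63, with r = 0.62 and rho = 0.65 (n = 9 mice, exact permutation p = 0.075, adjusted p = 0.85), between 0.41 without the mouse of tumor 7 and 0.85 without that of tumor 6.

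Trp63 and Oxtr themselves had r = 0.47 and rho = 0.39 (n = 9 mice, exact permutation p = 0.20, adjusted p = 0.86). Without the mice of tumors 6 and 7 r was 0.69, and without those of tumors 2 and 8 it was 0.28. Single mice moved it most, to 0.87 without tumor 7 and to 0.10 without tumor 6. Tumor 7, high in Trp63 with Oxtr at 0, lies away from the other tumors in the plot of both genes.

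**Figure D4:**
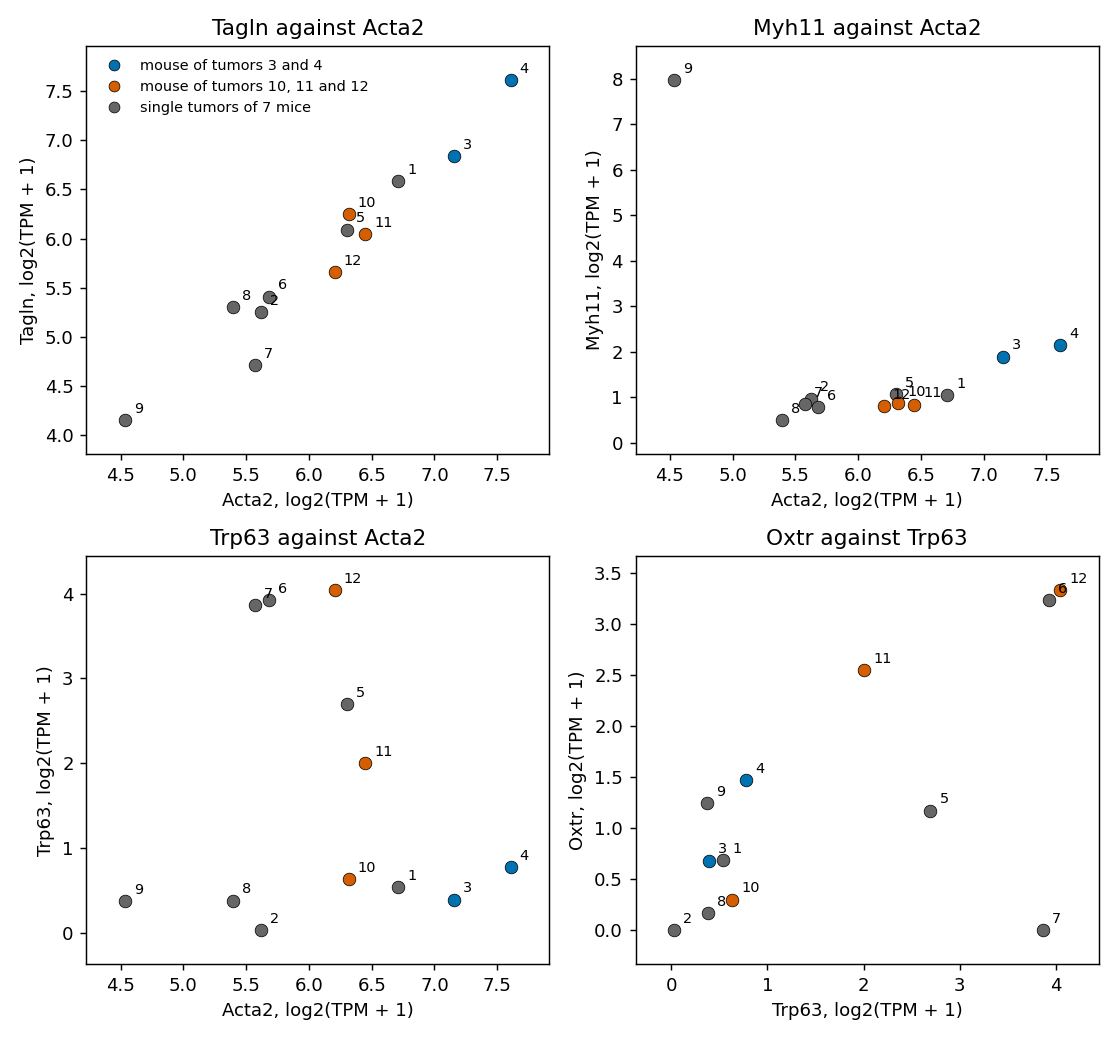
Pairs of genes on the log2(TPM + 1) scale, 1 point per tumor with its number: Tagln, Myh11 and Trp63 against Acta2, and Oxtr against Trp63. Blue points are the mouse of tumors 3 and 4, orange points the mouse of tumors 10, 11 and 12. Tagln follows Acta2 along a line (r = 0.97 over 9 mice), Myh11 lies far off in tumor 9 (r = 0.87 over the 8 other mice), Trp63 does not follow Acta2 (r = -0.02), and tumor 7 lies apart in the last panel.

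The genes most like each of these in all the data were as follows. For Acta2 they were Tagln, then Gpr137c (r = 0.97), Slc7a3 (0.96), Mkks (0.96) and Zfyve26 (0.95). For Trp63 they were Gm13261 (0.93), Cbfa2t2-ps1 (0.92), RP23-354H24.9 (0.92), Platr22 (0.92) and Kng1 (0.91), which were all below 10 TPM in every tumor. For Oxtr they were Lalba, the milk protein alpha-lactalbumin (0.96), Gm5297 (0.96), Timd2 (0.95), Ggt1 (0.95) and C530043A13Rik (0.95). None of these had an adjusted p under 0.05.

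The wider machinery was followed through lists of genes, of which no member passed after Benjamini-Hochberg adjustment over all genes for Acta2, Trp63 or Oxtr. Serum response factor, Srf, had between 15.4 (tumor 9) and 48.5 TPM (tumor 6), with r = 0.64 to Acta2. Of its coactivators, Mkl2 had r = 0.75 to Acta2 and Mkl1 r = 0.31, while Myocd, the myocardin gene, had a median of 0.0726 TPM and at most 1.57 TPM, too low to be tested. Thus 1 of 3 tested regulators reached an r of 0.7 to Acta2, and 0 of 3 did to Trp63 or Oxtr.

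Among 12 thin filament and cytoskeletal genes, Smtn, the gene of the contractile protein smoothelin, was the only one with an r of 0.7 or more to Acta2 (r = 0.79, from 7.07 TPM in tumor 9 to 123 TPM in tumor 3). The most abundant of the list were Tpm1, a tropomyosin, with r = 0.31 to Acta2, and Flna, the actin crosslinker filamin A, with r = 0.52. The least abundant were Synm, an intermediate filament gene, with r = 0.27, and Synpo2 with r = -0.16. Cnn3, a calponin that is not restricted to muscle, had r = -0.71 to Oxtr. In tumor 9, where Myh11 was high, 6 of the 12 were at their lowest of the 12 tumors, namely Tpm2 (6.24 TPM), Cald1 (19.0 TPM), Smtn, Des (1.28 TPM), Cnn3 and Synm, and 1 was at its highest, Synpo2 (2.48 TPM). Of the lists below, 4 of 8 pericyte genes, 2 of 12 genes of myosin regulation, 0 of 8 fibroblast genes and 0 of 7 luminal genes were lowest there. The share over all genes was not computed, so the count of 6 has no background.

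Of 11 tested genes of myosin regulation and calcium signalling, 0 reached 0.7 to Acta2, Trp63 or Oxtr. Myl6, the essential light chain of nonmuscle and smooth muscle myosin, was the most abundant, from 808 to 1601 TPM, and had r = -0.21 to Acta2, 0.60 to Trp63 and 0.67 to Oxtr. Ppp1r12b, a subunit of myosin phosphatase, was highest in tumor 9, at 42.5 TPM. Rhoa, a GTPase upstream of myosin phosphorylation, had r = -0.51 to Acta2. Avpr1a, a vasopressin receptor related to the oxytocin receptor, had at most 2.29 TPM and r = -0.06 to Oxtr.

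Of 10 genes that p63 is known to regulate, or that act with it in basal epithelium, 0 reached an r of 0.7 to Trp63. Krt14, a basal keratin, had r = 0.56 to Trp63 and was highest in tumor 1, at 1266 TPM, where Trp63 was 0.454 TPM. Krt5, its partner, had r = -0.19 and was highest in tumor 4, at 13.4 TPM. Itgb4, the beta4 integrin of the hemidesmosome, had r = 0.41 and Col17a1, a hemidesmosomal collagen, r = -0.28.

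Of 10 basal epithelial genes, 0 reached an r of 0.7 to Acta2 or Trp63, and 1 did to Oxtr. This was Itga6, the alpha6 integrin of the basal layer, with r = 0.70 to Oxtr and 0.67 to Trp63. Cdh3, the gene of P-cadherin, had r = 0.65 to Acta2 and was highest in tumor 12, at 11.7 TPM. Snai2, a transcription factor of basal cells, had r = -0.49 to Trp63. Of 7 luminal epithelial genes, 0 reached 0.7 to Acta2, Trp63 or Oxtr. All 7 nevertheless had a positive r to Trp63, from 0.35 (Krt19) to 0.57 (Cdh1), and to Oxtr, from 0.41 (Krt19) to 0.58 (Epcam). Their median r was 0.46 to Trp63 and 0.52 to Oxtr. It was 0.29 and 0.40 for the basal list, and 0.09 and 0.04 over all genes. Each luminal gene was lowest in tumor 2, where Trp63 was also lowest and Oxtr was listed at 0. These r are not given without that mouse.

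Other cell types that carry contractile genes were measured through their own markers. Of 8 pericyte genes, Notch3 had r = 0.78 to Acta2, Cspg4, the gene of NG2, 0.66 and Mcam 0.55, while Rgs5 had -0.30 and Abcc9 0.07, so 1 of 8 reached 0.7. The 8 pericyte genes summed to between 71.7 (tumor 9) and 193 TPM (tumor 8). Of 8 fibroblast genes, 0 reached 0.7, with Fap at 0.65, Col3a1 at 0.60, Postn at 0.19 and Pdgfra at 0.04. The fibroblast sum was 125 TPM in tumor 2, 3747 in tumor 4 and 3911 in tumor 8, and the last 2 held 194 and 41.1 TPM of Acta2.

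The 6 endothelial genes summed to between 51.7 (tumor 2) and 174 TPM (tumor 8), and 0 of 6 reached 0.7 to Acta2. The 6 skeletal muscle genes summed to 370 TPM in tumor 3 and 250 TPM in tumor 4, the tumors with the most Acta2, and to at most 62.8 TPM in the others, and 0 of 6 reached 0.7. The 5 B lymphocyte genes summed to between 11.6 (tumor 1) and 4662 TPM (tumor 2), with 333 TPM in tumor 9, where Ms4a1, the gene of CD20, was highest, and Ms4a1 had r = -0.76 to Acta2. The part of these cell types in the levels of the contractile genes was not tested.

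For most members a read could be placed on 1 gene. Of all 75-base windows in the annotated transcripts, 0% were shared with another gene on either strand for 8 members, Acta2 and Actg2 included. In Tagln 53.3% of windows overlapped antisense transcripts, 51.6% those of Gm48529 and 1.71% those of Pcsk7, and in Mylk 3.55% did. The libraries kept strand, but the strand setting of the counting is not given in the sources used here, so the Tagln level is uncertain to that extent.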

How the data were processed

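Per the labels and the study's methods, RNA of 12 tumors was sequenced from stranded mRNA libraries as paired-end reads, which the authors trimmed, aligned to GRCm38 with HISAT and quantified with StringTie 2.1.6. The deposited values are TPM, 1 per Ensembl gene and tumor, with no pooling. Depth is unknown because TPM keeps no read number.

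From these, log2(TPM + 1) was computed and averaged per mouse. Genes with a mean of at least 1 TPM were tested by exact permutation with Benjamini-Hochberg adjustment. The members, gene lists, tests and rule for named genes were chosen with earlier results of these data known. Named genes are the members, the 2 most and 2 least abundant genes of a list, and the 5 genes most like Acta2, Trp63, Oxtr and the contractile gene of largest SD. Other genes were named after their values were seen. Alternatives were a pseudocount of 0.1, a mean of 5 TPM or no filter, Spearman's rho, TPM rescaled without mitochondrial genes, each tumor as a unit and leaving out each mouse or tumor. Leaving out the mice of tumors 2 and 8 was added after seeing the data. Tests were tried on simulated data. Gene positions came from GENCODE vM21, which shares the build but not the annotation release of the study. Computation used numpy 2.4.6 and scipy 1.17.1 with pandas 2.3.3 under Python 3.11.15, and figures were drawn with matplotlib 3.10.9.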

Additional observations from a re-analysis of the deposited data

Results flagged for a closer look

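Each of the 10 genes was checked for a mouse far from the others, on log2(TPM + 1) over 9 mice, by the gap of the highest and of the lowest mouse to its neighbour relative to the whole range. Myh11 in the mouse of tumor 9, at 7.97 on the log2 scale (250 TPM), was the single value past the 95% limit of Dixon's test. Chance passes about 1 in 20 such groups.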

How the results depend on the processing

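No paired analysis was possible because no groups of samples were compared; neighbouring genes were compared within mice. No gene passed in likeness to Acta2, Trp63 or Oxtr, or in similarity within mice, under any alternative run. Of the 9 neighbouring levels, 1 pair passed as reported, 4 with each tumor as a unit, 0 without the mice of tumors 2 and 8, and 0 to 3 when single mice were left out (2 without tumor 6 and 3 without tumor 9). With 8 mice no pair can pass alone after adjustment. With a pseudocount of 0.1, Trp63 minus Cnn1 was -0.32, Oxtr minus Lmod1 -0.29, the r of Trp63 to Acta2 0.0558 and the difference within minus between mice in Trp63 -0.29. By rho, Acta2 had 0.18 to Myh11 and 0.28 to Trp63. Without the mice of tumors 2 and 8, the r of Oxtr to Acta2 was -0.10 and the difference within minus between mice in Trp63 -0.0169. Leaving out single mice gave -0.27 to 0.48 for Trp63 minus Cnn1, -0.25 to 0.35 for Oxtr minus Lmod1 and -0.77 to 0.57 for Myh11 minus Trp63. It gave an r to Acta2 of -0.28 to 0.19 for Trp63, -0.0011 to 0.27 for Oxtr and -0.70 to 0.87 for Myh11. Leaving out single tumors gave a difference within minus between mice of -0.74 to 0.47 for Trp63, -0.65 to 0.63 for Oxtr and -0.31 to 0.0322 for Lmod1. The cause of these changes was not tested. Depth is unknown, which limits what can be said of genes near 0.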
